A study of Mus musculus with 2 samples.

Results

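The genes described here are 7 matrix metalloproteinases (Mmp2, Mmp3, Mmp9, Mmp10, Mmp11, Mmp13 and Mmp14) and 3 tissue inhibitors of metalloproteinases (Timp1, Timp2 and Timp3). They were found by their gene name among the probes of 2-colour Agilent oligonucleotide arrays, which gave 12 of 39429 probes and 10 of 30011 genes. The set was selected on the log2 ratios of cyclopamine over control on these same arrays, in that it was proposed with them in view, so its ratios are a description and carry no test. Ureters of wildtype NMRI pups of both sexes were explanted at postnatal day 0 and kept for 18 h with 10 µM cyclopamine, an inhibitor of the SHH signal transducer SMO, or with solvent alone. Each array compared 1 pool of cyclopamine-treated ureters with 1 control pool of the same sex. Replicate 1 held female pools, with the control in green, and replicate 2 held male pools, with the dyes swapped. Since each array differs from the other in sex, in dye orientation and in pools, these cannot be told apart. The labels give DMF at 1 in 1000 as the control solvent, whereas the methods of the study give ethanol as the solvent of cyclopamine. A channel name in the labels reads IWP-2, while titles, treatment entries and protocol read cyclopamine, which was used here.

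Matrix metalloproteinases are zinc-dependent enzymes that cleave collagens, proteoglycans and other proteins outside the cell. Most are secreted as inactive proenzymes and are switched on by removal of a propeptide, in part by plasmin, by furin or by other metalloproteinases. TIMPs bind the active site of the enzymes and block it, and TIMP2 also takes part in the activation of proMMP2 by MMP14 at the cell surface.

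Mmp13 was higher with cyclopamine by at least 1.5-fold on both arrays, and it was the only gene of the 10 that did so with a control intensity over 100. Mmp3, Mmp10 and Mmp11 were also higher on both arrays, and Timp3 was lower on both. The other 5 genes (Mmp2, Mmp9, Mmp14, Timp1 and Timp2) went in opposite directions on the 2 arrays. The 4 listed SHH target genes were lower with cyclopamine on both arrays in the same RNA, and limma called each of them. Foxf1 had log2 ratios of -0.68 and -1.27 (limma adjusted p 0.0127). Hhip had ratios of -0.31 and -1.99 (limma adjusted p 0.00683), so it was under 1.5-fold on replicate 1, and its second probe had -0.99 and -2.32. Gli1, a transcriptional effector and target of the pathway, had log2 ratios of -1.83 and -2.09 (limma adjusted p 1.76e-08), and Ptch1, the SHH receptor and a target, had ratios of -1.13 and -1.49 (limma adjusted p 0.000248).

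The probes are shown by their first 30 bases, in lower case, because these stretches are what the intensities of the genes with the clearest and the most divided values were read from. All probes had 60 bases. Between probes of different genes of the family, inhibitors included, the longest shared run was 10 bases over 554 pairs of 34 probes.
Mmp13: tcattactcaaggctatgcacactggtaga
Mmp3: ctttgtgaaaggaagtgctttgttcagcat
Mmp10: acaaccctgtaaaatgagtctcatgacttc
Timp2, brightest probe: ccgtgagcgttcttgtgccgtgttgatgcc
Timp2, second probe: taattgcaggaaaggcagaaggagatggca
Timp3: atagtgacttttggggatagatctgtctgg

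Mmp13, Mmp3 and Mmp10 lie close together on chromosome 9, and the 100 bases before their transcript starts are shown for these neighbours. These 3 genes were higher on both arrays, as was Mmp11 on chromosome 10, which is not shown. The sequences are from RefSeq (GRCm38.p6, plus strand), and capitals mark the letters TGANTCA, which the AP-1 factors of the FOS and JUN families are known to bind.
Mmp13, chr9:7272414-7272513: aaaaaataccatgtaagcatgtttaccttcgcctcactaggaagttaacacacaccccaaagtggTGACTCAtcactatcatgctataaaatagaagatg
Mmp3, chr9:7445722-7445821: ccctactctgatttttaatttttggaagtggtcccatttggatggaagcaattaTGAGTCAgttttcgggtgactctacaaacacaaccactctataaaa
Mmp10, chr9:7502242-7502341: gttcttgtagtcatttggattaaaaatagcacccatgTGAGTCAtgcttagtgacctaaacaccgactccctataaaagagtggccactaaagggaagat

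The letters began 35 bases before the start of Mmp13, 46 before that of Mmp3 and 63 before that of Mmp10. On both strands of the 250 bases before the start, TGANTCA was found in 6.75% of 32851 promoters, and in 3 of the 8 promoters matched to the 10 genes. Among 14 matched genes of the rest of the family and Timp4 it was found in 5 (Mmp1a, Mmp1b, Mmp7, Mmp12 and Mmp20), and not in Mmp8 or Mmp27. No promoter was matched for Mmp2 and Mmp9. TATAAA was found before the same 3 genes and in 12.4% of all promoters. TGTGGT, the letters bound by RUNX factors, was found in 2 of the 8 and in 14.0% of all. GACCACCCA, the letters bound by GLI factors, was found in none of the 8 and in 0.225% of all. These are matches of letters, not measured binding.

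Replicate 1 was the brighter array, with a 75th percentile of 3338 in its control channel against 628 on replicate 2, so intensities are compared within an array only. Ratios spread more widely on replicate 1 (SD 0.457) than on replicate 2 (SD 0.296), and on replicate 1 they rose with gene length (Spearman's rho 0.439 over 22468 probes that share an array, against 0.0349 on replicate 2). With this trend removed, the ratio on replicate 1 moved by over 1.5 times for Mmp3 (from 0.22 to 0.37), Mmp11 (from 0.28 to 0.44), Mmp9 (from 0.09 to 0.17) and Timp1 (from -0.63 to -0.37). It moved by less for the other 6 genes, and none of the 10 changed sign on either array.

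Mmp13 encodes collagenase 3, which cuts fibrillar collagens and cartilage matrix. Its probe (mm9 chr9:7282762-7282821, plus strand) gave 392 in the control and 1044 with cyclopamine on replicate 1, in units of processed intensity. The male pools gave 114 in the control and 186 with cyclopamine. The cyclopamine pool was the brighter one on both arrays, with all 4 spots well above background in every channel. The log2 ratios of cyclopamine over control were 1.41 and 0.71, with a mean of 1.06 ± 0.50 (SD, n = 2), or 2.67-fold and 1.63-fold. The spots of 1 array spread by an SD of 0.0586 and 0.118, less than the arrays differed. The ratio of Mmp13 stood at the percentile 99.9 of all tested genes on replicate 1 and 98.7 on replicate 2. The control intensity of replicate 2 was just over the limit of 100, and with a limit of 200 no gene of the set passed.

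**Figure D1:**
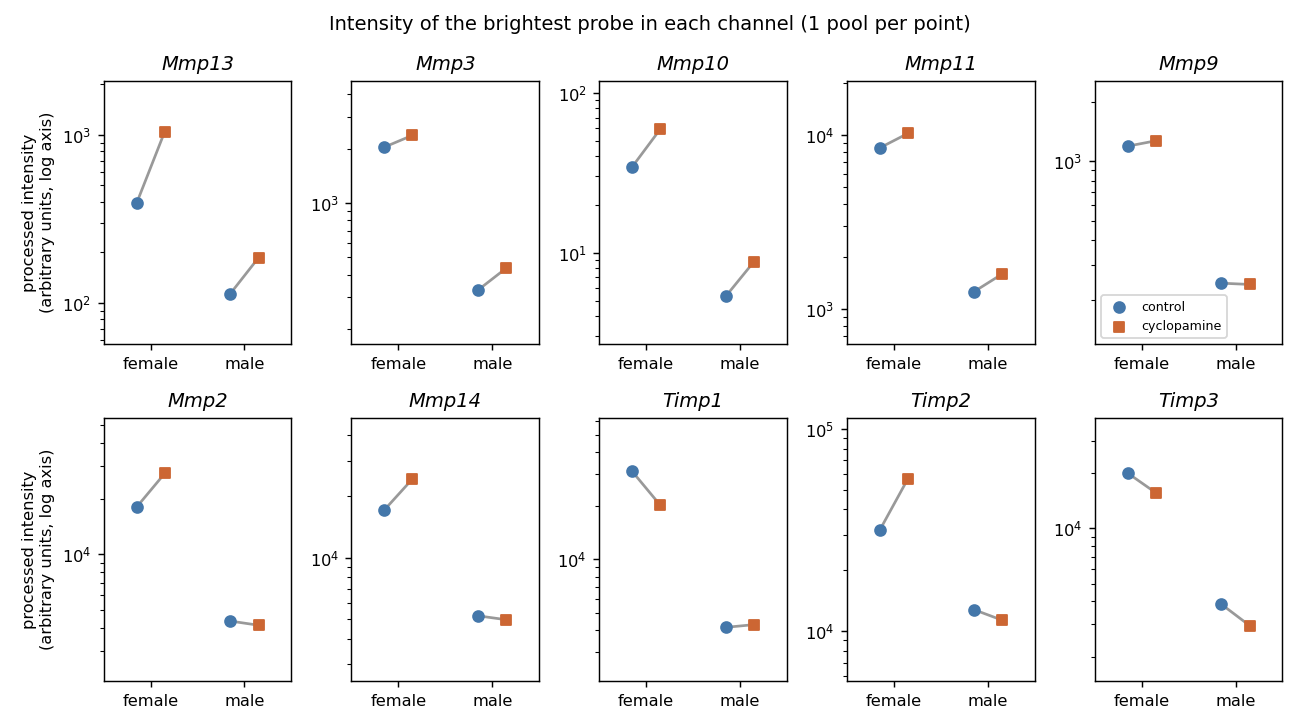
Processed intensity (arbitrary units, log axis, a scale of its own in each panel) of the brightest probe of each gene in the control pool (circle) and the cyclopamine pool (square) of the female array (replicate 1) and the male array (replicate 2). The line joins the pools of an array, and each point is the mean of the spots of 1 pool. Mmp13 rises from 392 to 1044 on the female array and from 114 to 186 on the male array, and levels are not comparable between panels or between arrays.

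The stromelysins MMP3 and MMP10 cleave proteoglycans, laminin and fibronectin and activate other proMMPs. Mmp3 had intensities of 2039 and 2372 in control and cyclopamine on replicate 1. On replicate 2 they were 329 and 435. The cyclopamine pool was brighter on both arrays, by log2 ratios of 0.22 and 0.40 (mean 0.31 ± 0.13, SD, n = 2), both under 1.5-fold.

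Mmp10 was a dim probe, with 34.3 in the control and 59.2 with cyclopamine on replicate 1. The values of replicate 2 were 5.35 and 8.80, and only 2 of 4 control spots were well above background there. The cyclopamine pool was again brighter on both arrays. The log2 ratios of 0.79 and 0.72 (mean 0.75 ± 0.05, SD, n = 2) depended on the background step, since with normexp and an offset of 50 they were 0.42 and 0.20. Mmp10 failed the intensity limit on both arrays.

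Mmp11, on chromosome 10, encodes stromelysin 3, which furin activates inside the cell. Its brightest probe had 8451 in the control and 10237 with cyclopamine on replicate 1. In the male pools it had 1254 and 1585. The log2 ratios were 0.28 and 0.34 (mean 0.31 ± 0.04, SD, n = 2), over 3 spots an array. The second probe of Mmp11 went the same way, with ratios of 0.27 and 0.42.

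The gelatinases MMP2 and MMP9 cleave denatured collagen and basement membrane collagen. Mmp2 had 18002 in the control and 27396 with cyclopamine on replicate 1, a log2 ratio of 0.61. On replicate 2 it had 4359 and 4139, a ratio of -0.07. The arrays went in opposite directions, with replicate 2 close to no difference. Mmp9 had 1192 and 1268 on replicate 1 and 243 and 240 on replicate 2. Its log2 ratios of 0.09 and -0.02 were both small, with spot SDs of 0.0353 and 0.0297.

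Mmp14 encodes a membrane-anchored enzyme that activates proMMP2. It had 17164 in the control and 24392 with cyclopamine on replicate 1. The male pools gave 5172 and 4950. The log2 ratios of 0.51 and -0.06 were like those of Mmp2, higher on replicate 1 and near 0 on replicate 2.

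**Figure D2:**
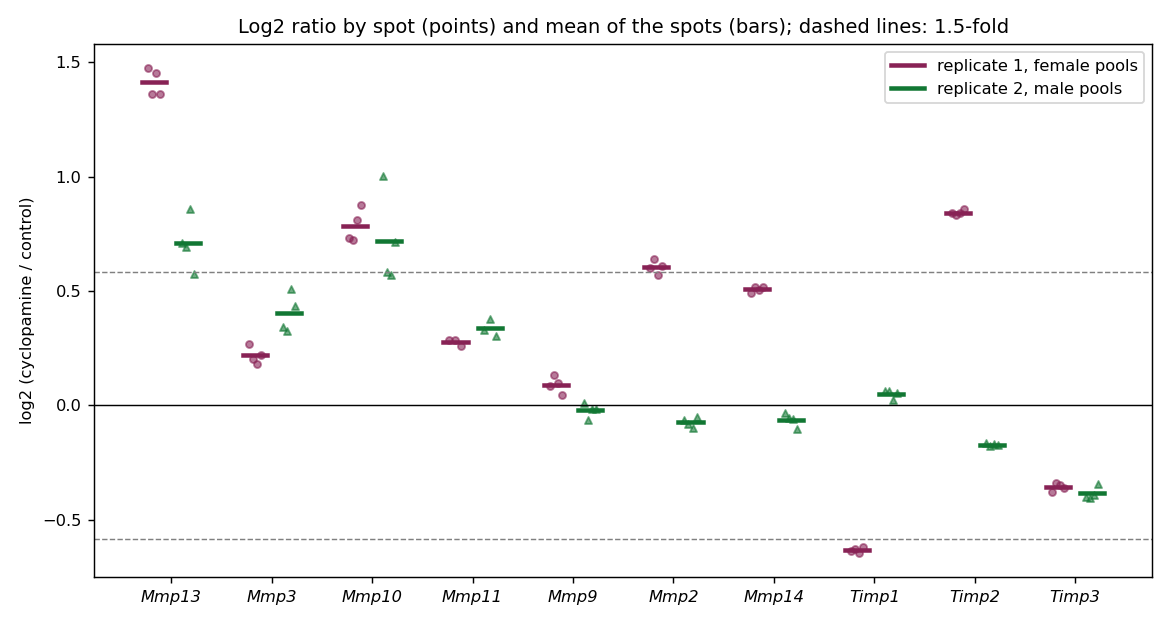
Log2 ratio of cyclopamine over control for each gene, with points for single spots (3 or 4 a probe), bars for their mean, circles for replicate 1 (female pools), triangles for replicate 2 (male pools) and dashed lines at 1.5-fold. Mmp13 is the only gene with both bars past the dashed line and a control intensity over 100, since the bars of Mmp10 also lie past it but its probe is dim.

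The inhibitors did not move together. Timp3, whose product stays bound to the matrix, had 19986 in the control and 15612 with cyclopamine on replicate 1. In the male pools the values were 3859 and 2955. The cyclopamine pool was dimmer on both arrays, by log2 ratios of -0.36 and -0.38 (mean -0.37 ± 0.02, SD, n = 2), both under 1.5-fold.

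Timp1, a secreted inhibitor encoded on the X chromosome, had 31224 in the control and 20144 with cyclopamine on replicate 1. On replicate 2 it had 4147 and 4295. The log2 ratios of -0.63 and 0.05 put the lower value on replicate 1 alone.

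Timp2 was read by a pair of probes that differed. The brightest one, from base 2791 of the transcript (mm9 chr11:118163146-118163205, minus strand), had 31686 in the control and 56853 with cyclopamine on replicate 1. The same probe had 12793 and 11354 on replicate 2. The second one, from base 652 and aligned over 6778 bases of the genome, had 8636 and 8589 on replicate 1 and 1337 and 1309 on replicate 2. The log2 ratios were 0.84 and -0.17 for the brightest probe and -0.01 and -0.03 for the second, so the rise on replicate 1 was seen with the brightest probe only. The probes of Timp2 differed by 0.851 on replicate 1, where the median difference over 5193 genes with a pair of tested probes was 0.164 and 3.77% of them differed by at least as much. On replicate 2 the difference was 0.141, and 31.9% of these genes differed by at least as much. Which probe gives the level of the Timp2 transcript was not tested.

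Of the 10 genes, 4 were higher on both arrays, 1 was lower on both and 5 were opposite. Over the 19398 genes tested, 28.6% were higher on both, 28.9% lower on both and 42.4% opposite. The median log2 ratio of the 10 genes was 0.392 on replicate 1 and 0.0147 on replicate 2, against -0.00262 and -0.000197 over all genes tested. By the filter on intensity and fold, 1 of the 10 genes was higher and 0 were lower, beside 0.212% higher and 0.63% lower of 13661 genes. No limma call is given for the 10 genes. On replicate 1 alone, Mmp13, Mmp2 and Timp2 were at least 1.5-fold higher and Timp1 lower, beside 8.5% higher and 8.64% lower of the 13661 genes, and on replicate 2 alone Mmp13 was, beside 2.26% either way. Because the genes were proposed with these values in view, nothing is read from the counts. Over 13480 genes with an intensity over 100 in every channel, the ratio pairs nearest to that of Mmp13 were those of Lox, which encodes a collagen crosslinking enzyme (1.35 and 0.67, a distance of 0.0747), and of Ifi207 (1.47 and 0.58, a distance of 0.146).

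**Figure D3:**
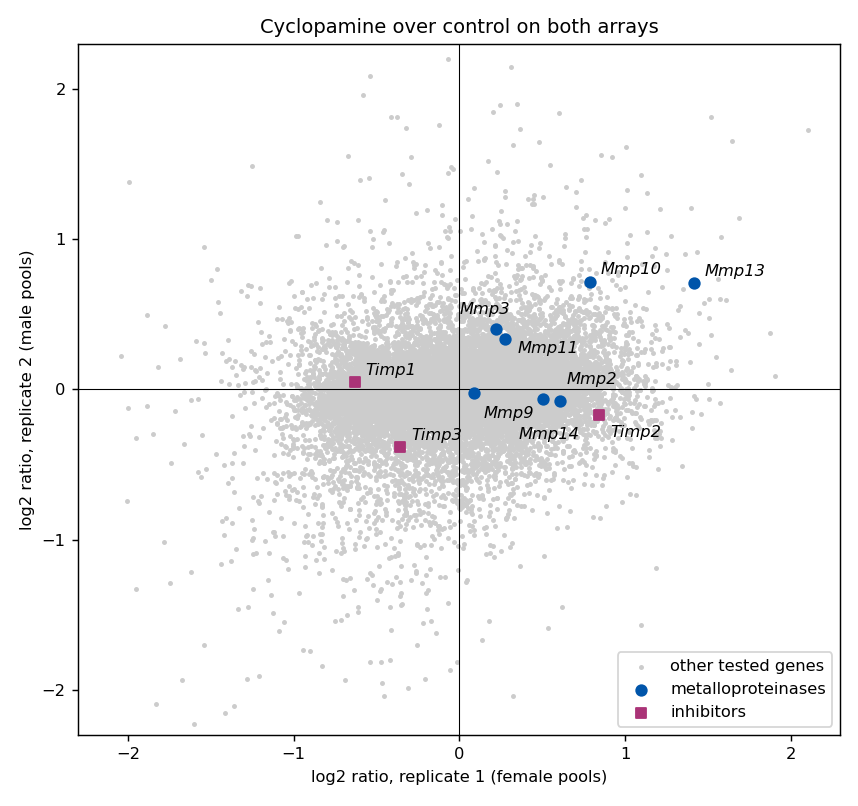
Log2 ratio of cyclopamine over control on replicate 1 (female pools, horizontal) against replicate 2 (male pools, vertical) for the 19398 tested genes (grey), the metalloproteinases (blue circles) and the inhibitors (purple squares), with 16 genes outside the axes. Mmp13 and Mmp10 lie at the upper right, Timp3 at the lower left, and Mmp2, Mmp14 and Timp2 to the right near 0 on replicate 2.

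The chromosome 9 block that holds Mmp13, Mmp3 and Mmp10 has 10 metalloproteinase genes on this array and no other gene between them. It was delineated after the values were seen. Of these 10 genes 7 were bright enough to be tested, 3 of them from the set. Mmp27 was so only through the cyclopamine channel, since a probe could pass by either condition, and no count of directions is therefore given over the block. Mmp1a, Mmp1b and Mmp20 were not well above background on either array.

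Mmp8, the neutrophil collagenase, had 55.1 in the control and 99.6 with cyclopamine on replicate 1 and 7.31 and 21.6 on replicate 2. Its log2 ratios were 0.85 and 1.56 (limma adjusted p 0.00109). Mmp27 had 17.9 and 51.4 on replicate 1, a log2 ratio of 1.52. On replicate 2 the cyclopamine pool had 7.50, and none of the 4 control spots was well above background, so no ratio and no test are given there. With normexp and an offset of 50 the replicate 1 ratio of Mmp27 was 0.62. Mmp7, or matrilysin, had 25.5 and 31.7 on replicate 1 and 5.52 and 24.5 on replicate 2. The ratio was 0.31 on the first array and 2.15 on the second (limma adjusted p 0.00381). On the second array only 2 of 4 control spots of Mmp7 were well above background, and 3 of 4 of Mmp8. The probes of Mmp8, Mmp27 and Mmp7 were dim, all under the intensity limit. Of 8 alternative settings, the call held in 5 for Mmp8 and in 4 for Mmp7. With normexp and an offset of 50 both calls were lost, at ratios of 0.52 and 0.57 for Mmp8 and 0.13 and 0.69 for Mmp7. Mmp12, the macrophage elastase, had ratios of 0.51 and 0.03 (limma adjusted p 0.746).

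**Figure D4:**
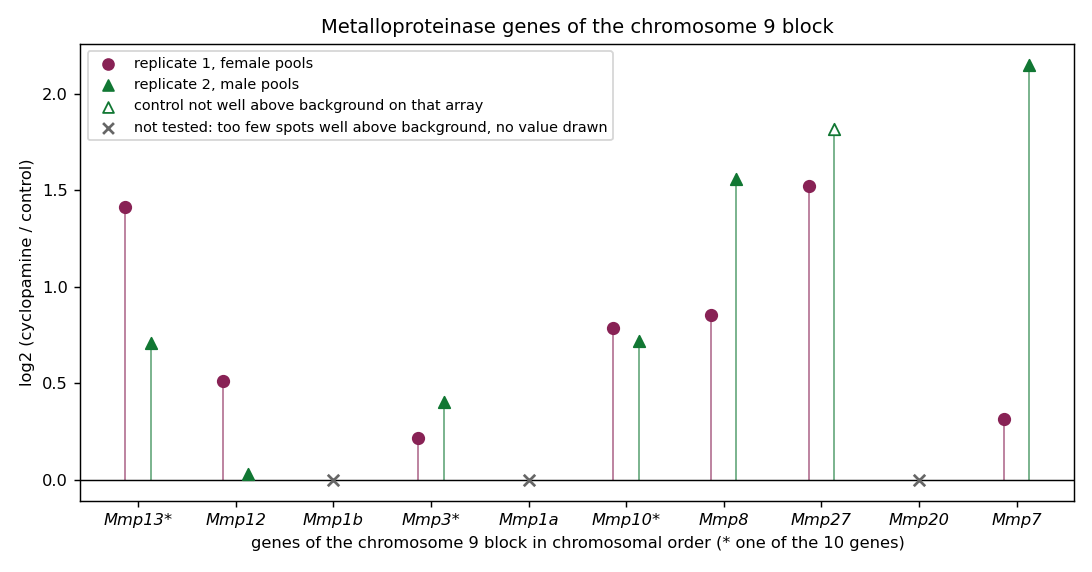
Log2 ratio of cyclopamine over control for the metalloproteinase genes of the chromosome 9 block in their order on the chromosome, with circles for replicate 1 (female pools), triangles for replicate 2 (male pools) and crosses for the 3 genes too dim to test. An asterisk marks Mmp13, Mmp3 and Mmp10. The open triangle of Mmp27 marks a control pool that was not well above background, so nothing is read from its height.

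The rest of the family showed no call. Mmp15, Mmp16, Mmp17 and Mmp19 had ratios of opposite sign on the arrays, from 0.04 to 0.40 on replicate 1 and from -0.62 to -0.02 on replicate 2. Mmp23 had ratios of -0.40 and -0.07 (limma adjusted p 0.782). Mmp28, dim as well, had a ratio of 0.54 on replicate 1 and a control that was mostly not well above background on replicate 2. Mmp21, Mmp24 and Mmp25 were not tested, for lack of signal over background. Over all genes tested, limma called 0.438% higher and 0.866% lower (0.454% and 0.77% of probes, 1.22% in either direction). Among other inhibitors, Reck, a membrane-anchored inhibitor of several MMPs, had ratios of 0.34 and -0.31 (limma adjusted p 0.992), and Timp4 and A2m were too dim to test.

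Genes that act on the metalloproteinases were counted next, each by its brightest probe. Of the activators of proMMPs and their serpins, 6 of 8 were tested and limma called 0, and Furin, the brightest, had ratios of 0.57 and 0.07 (limma adjusted p 0.696). Of 10 transcription factors known to act on MMP promoters, limma called 0, and Jund, the brightest, had ratios of 0.16 and -0.09 (limma adjusted p 0.974). Of 7 cytokines and inducers, Il1a, the gene of interleukin 1 alpha, was called higher, from 119 to 261 on replicate 1 and from 22.8 to 56.5 on replicate 2, with ratios of 1.14 and 1.31 (limma adjusted p 0.000647). Its control on replicate 2 was under the intensity limit, and the call held in 6 of 8 alternatives. Of 12 ADAM and ADAMTS proteases limma called 0, and Adam10, the brightest, had ratios of 0.62 and 0.08 (limma adjusted p 0.666). The dimmest probe of Adam12 was called, with ratios of 1.48 and 0.32 (limma adjusted p 0.0382). The brightest probe of Adam12 had ratios of 1.00 and -0.10 (limma adjusted p 0.571).

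Of 8 tested matrix substrates 7 went in opposite directions, with a median of 0.746 on the female array and -0.448 on the male array, and limma called 0. The male ratios of Mmp2 and Mmp14, at -0.07 and -0.06, were nearer to 0 than that median. Dcn, the gene of the proteoglycan decorin and the brightest of the list, had ratios of 0.42 and -0.09 (limma adjusted p 0.862). The summed intensity of the 5 fibroblast markers, Col1a1 among them, was 1.42 times the control on replicate 1 and 0.843 times on replicate 2. That of the 4 endothelial markers was 1.60 and 0.875 times, with Tek higher on both arrays (0.66 and 0.05) and Cdh5, Kdr and Pecam1 opposite. Fibroblast markers Aldh1a2 and Thy1 nevertheless passed the filter as lower on both arrays. Pdgfra, another of them, had ratios of 1.27 and 0.01, and Col1a1 and Dcn went in opposite directions. The study also reports Aldh1a2 and Thy1 as reduced by cyclopamine, on these arrays and by in situ hybridization. In bulk RNA, fewer cells of a type and less RNA per cell cannot be told apart, and the part of cell composition in the ratios of Mmp2, Mmp14 and Timp2 was not tested. Beside Mmp13 and the block, the 8 leukocyte markers were all tested and summed to 0.957 and 0.942 times the control, a sum that hides unlike members. The neutrophil markers S100a8, S100a9 and Ly6g had ratios of -0.77, -0.90 and -0.70 on replicate 1 and 0.10, 0.00 and -0.02 on replicate 2. Ptprc, Csf1r and Adgre1 had 0.39, 0.33 and 0.21 on replicate 1 and -0.05, -0.29 and 0.19 on replicate 2. Itgam had 0.13 and -0.08, and Cd68 was lower on both arrays, at -0.24 and -0.23. Limma called none of the 8, and the part of these cells in the ratio of Mmp8 was not tested. The 6 bone and cartilage markers, of which 4 were tested, summed to 0.620 and 0.759 times, a sum carried by Sox9 (-0.84 and -0.48). Sp7 had ratios of -0.36 and -1.28 (limma adjusted p 0.0657), and Bglap had -0.59 and -0.10 (limma adjusted p 0.672). Col2a1, a cartilage collagen, was the only tested marker of this list that was higher, with ratios of 0.46 and 1.02 (limma adjusted p 0.116). With the gene length trend removed limma called Sp7 and Col2a1, and with outlier spots kept it called Sp7. Acan and Col10a1 were not tested. Smooth muscle markers summed to 0.973 and 0.631 times, a sum carried mostly by Acta2, the brightest (-0.06 and -0.92). Cnn1 had ratios of -0.26 and -0.84, and Tagln had -0.19 and -0.32. Myh11 and Smtn went in opposite directions, at 0.35 and 0.31 on replicate 1 and -0.40 and -0.31 on replicate 2. None of the smooth muscle markers was called by limma. Urothelial markers summed to 1.09 and 1.07 times.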

How the data were processed

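Spot intensity in each channel was taken from the scanner output that the authors deposited, made with Agilent Feature Extraction, version 12.2.0.7 per the file headers and 10.7.3.1 in the submitters' processing notes. The processed intensity was background-subtracted, detrended and dye-balanced within the array. The deposited log10 ratio (red over green) served only to check the direction. The authors' deposited series table holds a score, which the values show to be a rounded, signed fold change, and it served as an alternative. Flags for background and outliers are part of the deposited output.

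Outlier spots (2.89% and 3.15%) were left out, the other spots of a probe were averaged on the log2 scale, ratios were turned to cyclopamine over control, and the brightest probe stood for a gene. Names came through the RefSeq accession for 28328 of 39429 probes. Spots well above background in the control channel were 69.7% and 65.1%, and the 2 arrays limit the precision. The filter asked for a control intensity over 100 and 1.5-fold the same way on both arrays. limma 3.58.1 in R 4.3.3 tested 25975 probes with at least 0.5 of their spots well above background in either condition on both arrays, with dye orientation in the design, 1 residual degree of freedom and Benjamini-Hochberg adjustment at 0.05. p-values measure the spread between these arrays only. Listed genes were named if called or past the filter, and otherwise the brightest of a list was named. All members, all other family genes and inhibitors, Gli1, Ptch1 and the genes nearest to Mmp13 were named too, except that a nearest transcript known only by an identifier is left out. The members and lists were chosen with earlier results of these data known.

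The limma step was tested on simulated data. Its first noise model, with heavy tails, gave no call of any changed probe, and a second one, taken from the spread that limma itself estimated on the real arrays, was added after that result was seen. Under both, size and direction were recovered. Under the second, in most of the runs more of the calls were unchanged probes than the limit of 0.05 allows. The limma calls, those of Mmp7, Mmp8 and Il1a included, thus rest on the estimated spread and may hold more false calls than their adjusted p states.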

Additional observations from a re-analysis of the deposited data

Results flagged for a closer look

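In 5 of the 10 genes the female and the male array went in opposite directions. The difference in log2 ratio, female minus male, was 1.02 for Timp2, 0.68 for Mmp2, 0.57 for Mmp14, 0.11 for Mmp9 and -0.68 for Timp1. These differences were not tested, since each sex has 1 array. The male ratios of Mmp2, Mmp9, Mmp14 and Timp1 lay between -0.07 and 0.05, so their opposite sign rests on values near 0. Sex, dye orientation and pool cannot be told apart.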

How the results depend on the processing

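Mmp13 passed the filter in every setting that kept both arrays except a control intensity over 200 and a fold limit of 2, under each of which 0 genes of the set passed. Leaving out 1 array gave from 1 to 3 genes higher and from 0 to 1 lower. Without replicate 2 these were Mmp13, Mmp2 and Timp2 higher and Timp1 lower, and without replicate 1 Mmp13 alone. Of 62 other member values, 54 moved by less than the spread between arrays and 8 by more, and the mean of Timp2 turned sign with its second probe. The limma counts of 118 probes higher and 200 lower depended on the setting. They were 33 and 72 with normexp and an offset of 50, 61 and 136 with an offset of 10, 235 and 279 with the gene length trend removed and 216 and 261 with no filter on dim probes. With the series table values limma called 0 and 0 probes (1051 and 818 at an unadjusted p under 0.05). Without the replicate block, with the 4 channels as separate samples, it called 1 and 0 (280 and 287 unadjusted). By the brightest probe of each gene, limma called Mmp7, Mmp8 and Il1a of the related lists higher and 4 genes lower. Mmp27 passed the dim-probe filter only through the cyclopamine channel, so it is left out of these calls. The calls in these lists were 1 higher with an offset of 50 and 2 with an offset of 10. They were 0 in both directions with the series table values and without the replicate block. The share of calls that were higher was 37.1%, and 45.7% with the length trend removed. The cause of these shifts was not tested, beyond fewer or more probes tested where the filter changed. Signal over background limits Mmp10, Mmp7, Mmp8 and Mmp27.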
